A study of Mus musculus with 2 samples.

Results

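Among the fibro/adipogenic progenitors (FAPs) of limb muscle, the cells described here were chosen by UMIs of Hmcn1, Meox1 and Etv4. A UMI is a molecular tag that marks 1 captured transcript. A cell was selected when these 3 genes together had 2 or more UMIs (called gate UMIs below), when Pi16, Sema3c, Anxa3 and Efemp1 together made up less than 25 of every 10000 UMIs of the cell, and when Cxcl14 made up less than 5 of every 10000. The last 2 limits set aside cells with many transcripts of the Dpp4+ or Cxcl14+ FAP markers. Of 8481 cells, 1085 were selected. Each library's selected cells were compared with its own reference cells. These were under the same limit for Pi16, Sema3c, Anxa3 and Efemp1 and had no UMI of Hmcn1, Meox1 or Etv4. The Cxcl14 limit was set for selected cells alone, so reference cells could have many Cxcl14 transcripts. The 8 genes of the rule are therefore described here and support nothing.

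The study sorted FAPs as 7AAD-Lin-Vcam1-Sca1+ cells from limb muscle of 3-week-old C57BL/6 mice and made 1 droplet library for each of 2 genotypes. The control library came from Bap1f/f mice, in which the Bap1 alleles are floxed and intact. The other library, labelled Bap1ΔMPC, came from Prx1-Cre;Bap1f/f mice, in which Cre is driven by a Prx1 enhancer that is active in limb mesenchyme, so the floxed alleles are shared by both libraries. The sources used here do not state how many mice went into a library. With 1 library per genotype no difference has a replicate check, and neither a test nor a p-value is given. Intervals are exact 95% intervals that cover counting error only, and cells of a library are not replicates.

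FAPs are interstitial mesenchymal cells that carry the receptor Pdgfra, lie between muscle fibers and can become fibroblasts or adipocytes. Hmcn1 encodes hemicentin, a large extracellular protein related to the fibulins. Meox1 is a homeobox factor of the embryonic somites, and Etv4 is an ETS factor whose transcription is known to follow FGF receptor and ERK signaling. Bap1 encodes a nuclear deubiquitinase that acts on histone H2A.

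The Bap1f/f library held 4103 cells and 51015705 UMIs, and the library labelled Bap1ΔMPC held 4378 cells and 49540066 UMIs, where 5000 cells per genotype were targeted. The libraries shared 5 cell barcodes, and 0 of these were selected in both. Bap1 itself had 197 UMIs in the selected cells of the Bap1f/f library (20.0 CPM, UMIs per 1000000 summed UMIs of the group of cells) and 95 UMIs in those of the library labelled Bap1ΔMPC (26.3 CPM). Its log2 ratio between the libraries was 0.39 (interval 0.02 to 0.75), so its count was not lower in the library labelled Bap1ΔMPC. The counts are made from the 3′ ends of transcripts and the floxed exons lie further upstream, so they do not check the label. The receptor Pdgfra stood at 468 and 410 CPM in the selected cells, against 346 and 326 CPM in the reference cells, and Ly6a, which encodes Sca1, stood at 1093 and 1201 CPM against 1346 and 1740 CPM. Pax7, Myf5, Myod1, Ptprc and Cd3e had 0 UMIs in the selected and in the reference cells of both libraries. The authors had removed cells with high levels of markers of other muscle cells, so these zeros are no independent check of the sort.

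Selected cells made up 782 of 4103 cells (19.1%, interval 17.9 to 20.3%) in the Bap1f/f library. They made up 303 of 4378 cells (6.92%, interval 6.19 to 7.71%) in the library labelled Bap1ΔMPC, a share 2.75-fold smaller. Since the rule reads raw UMIs, depth enters it. After every cell was thinned to 5000 UMIs, which left out 120 and 210 shallower cells, 479 and 153 cells were selected (12.03% and 3.67%, 3.28-fold apart). Median UMIs per selected cell were 12349 and 11623, against 11580 and 10530 in the reference cells, and the share of mitochondrial UMIs had medians of 2.86% and 2.77% in selected cells against 2.4996% and 2.77%. Selected cells were thus the deeper group in both libraries, and what part depth had in the ratios below was not tested beyond the thinning.

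No gap in gate UMIs separated the selected cells from the rest. Under both limits, the Bap1f/f library had 2484 cells, of which 1380 had 0 gate UMIs, 322 had 1, 158 had 2 and 120 had 10 or more. Of the 2107 such cells in the library labelled Bap1ΔMPC, 1590 had 0, 214 had 1, 111 had 2 and 26 had 10 or more. Cells with 2 gate UMIs lie just inside the rule and cells with 1 just outside it. The plot of cells by gate UMIs shows the share declining from 0 to 6 gate UMIs in both libraries.

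**Figure D1:**
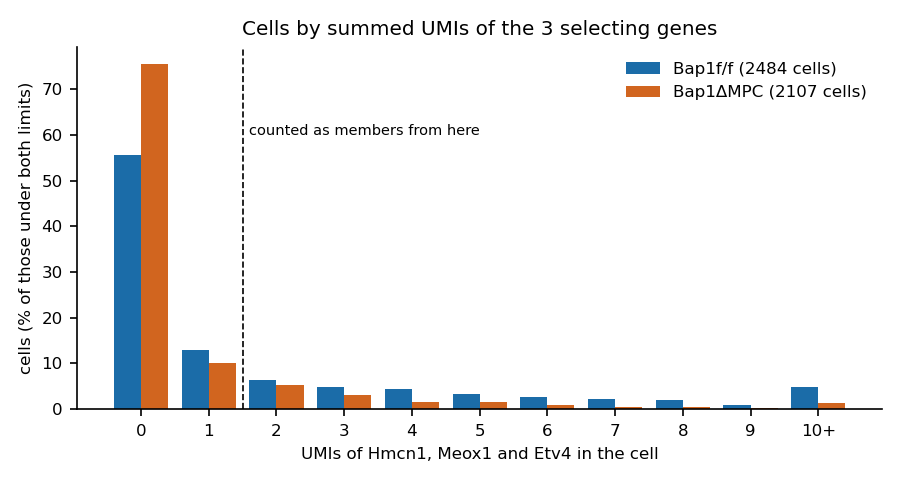
Share of the cells under both limits (y axis, % of 2484 and 2107 cells) by summed UMIs of Hmcn1, Meox1 and Etv4 in the cell (x axis), with blue bars for the Bap1f/f library and orange bars for the library labelled Bap1ΔMPC. The bars fall from 0 to 6 UMIs in both libraries, the last class pools all cells with 10 or more, and cells right of the dashed line were selected.

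The 3 genes of the rule were not equally represented in the libraries. Hmcn1 had a UMI in 79.4% of selected cells of the Bap1f/f library and in 37.6% of those of the library labelled Bap1ΔMPC. Meox1 had a UMI in 81.5% and 80.5%, and Etv4 in 31.6% and 23.1%. The share of selected cells with UMIs of 2 or more of the 3 genes was 70.2% (549 of 782, interval 66.9 to 73.4%) in the Bap1f/f library and 36.3% (110 of 303, interval 30.9 to 42.0%) in the other. Cells with Meox1 alone were 109 of 782 (13.9%) and 142 of 303 (46.9%), and cells with all 3 genes were 174 (22.3%) and 15 (4.95%). The rule therefore drew a different mixture from each library, with more Meox1-only cells in the library labelled Bap1ΔMPC. Over all cells of a library, Hmcn1 stood at 46.0 CPM in Bap1f/f and 12.7 CPM in Bap1ΔMPC, Meox1 at 56.3 and 28.2 CPM, and Etv4 at 8.92 and 4.02 CPM.

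As a description of the rule, each of the 3 genes was left out in turn and cells were selected by the remaining pair. Cells selected by Meox1 and Etv4 had Hmcn1 at 165 CPM against 26.2 CPM in cells without either in the Bap1f/f library (6.29-fold), and at 63.5 against 9.99 CPM in the library labelled Bap1ΔMPC (6.36-fold). Meox1, left out likewise, stood at 217 against 27.3 CPM (7.97-fold) and at 138 against 31.6 CPM (4.36-fold). Etv4 stood at 35.9 against 1.81 CPM (19.8-fold) and at 20.6 against 2.58 CPM (7.98-fold). These are values of the genes of the rule, and nothing is drawn from them.

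Tbx2, a T-box repressor and the only given marker that the rule did not use, was also higher. It had 367 UMIs in the selected cells of the Bap1f/f library (37.3 CPM) against 101 in its reference cells (5.02 CPM), a log2 ratio of 2.89 (interval 2.57 to 3.23). In the library labelled Bap1ΔMPC it had 54 UMIs (14.9 CPM) against 71 (2.76 CPM), a log2 ratio of 2.43 (interval 1.90 to 2.96). At least 1 Tbx2 UMI was seen in 32.4% and 13.2% of selected cells and in 5.53% and 2.77% of reference cells, so most selected cells had none. Within clusters (described below) the difference was uneven. In Bap1f/f, Tbx2 stood at 8.30 CPM in selected cells of cluster 1 against 6.92 CPM in those with 0 gate UMIs, and at 49.2 against 20.1 CPM in cluster 6. In cluster 3 of Bap1ΔMPC it stood at 26.6 against 9.63 CPM. As 1 marker is left to check the label, the cells are called by their rule and by no cell type name.

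In genes outside the rule, selected cells stood apart from reference cells in each library. Genes entered a comparison when 10 or more UMIs were expected in the selected cells at the rate of both groups together. Of 12177 genes that entered in the Bap1f/f library, 605 (4.97%) were over 2-fold higher and 444 (3.65%) over 2-fold lower. Of 10840 genes in the library labelled Bap1ΔMPC, 280 (2.58%) were higher and 289 (2.67%) lower. Among the 10754 genes that entered in both, 160 (1.49%) were higher in both and 114 (1.06%) lower in both. The 160 genes were 40.7% of the 393 higher in the Bap1f/f library and 59.0% of the 271 higher in the other, and the 114 genes were 41.6% of 274 and 44.0% of 259. Of the 393 genes higher in Bap1f/f, 358 had a log2 ratio above 0 in the library labelled Bap1ΔMPC, and of the 274 lower, 237 had one below 0. The median log2 ratio of the 10754 genes in that library was 0.06, so more of all genes lay above 0 than below. Reference cells numbered 1699 in Bap1f/f and 2349 in Bap1ΔMPC, of which 1380 and 1590 were under the Cxcl14 limit. Against those under the limit alone, 156 genes were higher in both libraries and 94 lower in both.

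The balance of higher and lower genes depended on the scaling. The median log2 ratio over all genes that entered was 0.18 in the Bap1f/f library and 0.06 in the other, and became -0.01 and -0.03 with TMM scaling. With TMM, 440 genes were higher and 604 lower in Bap1f/f, 212 and 346 in Bap1ΔMPC, and 113 and 144 in both. Ratios centred on their median, an alternative chosen after seeing the data, gave 454 and 592, 233 and 322, and 121 and 140. The direction of the counts is therefore not read further, and the ratios below are to be set against medians of 0.18 and 0.06.

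**Figure D2:**
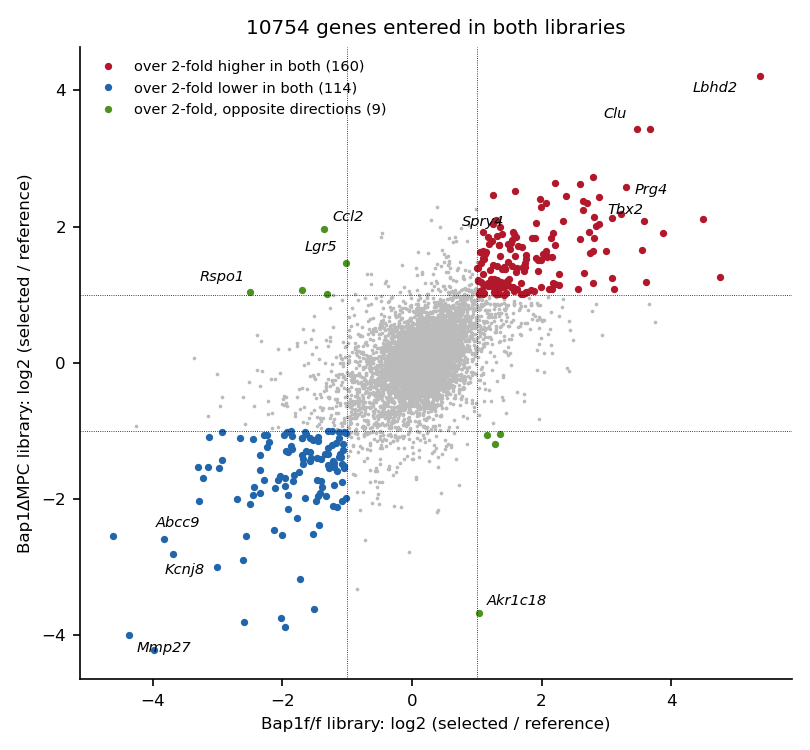
Log2 ratio of selected to reference cells in the Bap1f/f library (x axis) and in the library labelled Bap1ΔMPC (y axis) for the 10754 genes that entered in both, 1 point per gene, with dotted lines at 2-fold. The 160 genes higher in both (red) and 114 lower in both (blue) lie along the diagonal, and 9 genes past 2-fold in opposite directions (green) include Ccl2 and Rspo1.

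The gene with the largest ratio in both libraries was Lbhd2. It had 383 UMIs in selected cells of the Bap1f/f library (38.9 CPM) and 19 in reference cells (0.944 CPM), a 41.2-fold difference (log2 5.36, interval 4.70 to 6.11). In the library labelled Bap1ΔMPC the values were 102 UMIs (28.2 CPM) and 39 UMIs (1.52 CPM), 18.6-fold (log2 4.22, interval 3.67 to 4.79). A Lbhd2 UMI was found in 24.9% and 13.5% of selected cells and in 0.765% and 1.32% of reference cells. Lbhd2 was rare outside the selected cells, but most selected cells had no UMI of it either.

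Clu, the secreted chaperone clusterin, was nearly equal in its ratio between the libraries. Its level was 388 against 35.0 CPM in Bap1f/f (11.1-fold, log2 3.47) and 574 against 53.0 CPM in Bap1ΔMPC (10.8-fold, log2 3.44). Clu UMIs were concentrated in some of the cells. They were seen in 59.3% and 54.8% of selected cells, against 17.2% and 15.4% of reference cells, and the tenth of selected cells with most Clu UMIs held 60.2% and 56.0% of them. Within clusters (described below) the difference was smaller. In cluster 6 of Bap1f/f Clu stood at 1194 CPM in selected cells against 426 CPM in cells with 0 gate UMIs. In Bap1ΔMPC it stood at 1274 against 434 CPM in cluster 3 and at 79.3 against 91.3 CPM in cluster 5.

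Among the 15 genes named by the rule of largest ratio were 2 collagens, lubricin and an integrin chain. Col13a1, a transmembrane collagen of the neuromuscular junction, stood at 16.5 against 1.29 CPM (log2 3.67) in Bap1f/f and 16.3 against 1.52 CPM (log2 3.43) in Bap1ΔMPC. Col8a2, a short-chain collagen, stood at 55.6 against 5.92 CPM (3.23) and 68.0 against 14.9 CPM (2.19). Prg4, the joint lubricant lubricin, stood at 146 against 14.8 CPM (3.31) and 180 against 30.1 CPM (2.58). Itga6, a laminin-binding integrin chain, stood at 30.6 against 4.42 CPM (2.79) and 21.6 against 3.27 CPM (2.72). All of these were at least 4.56-fold higher in both libraries, and for Prg4 and Col8a2 the intervals of the 2 libraries did not overlap, with the larger ratio in Bap1f/f. The difference was small within cluster 5 of Bap1ΔMPC (described below). There Prg4 stood at 175 CPM in selected cells against 162 CPM in cells with 0 gate UMIs, and Col8a2 at 119 against 92.5 CPM. In cluster 3 of that library Prg4 stood at 258 against 60.4 CPM and Col8a2 at 73.1 against 16.6 CPM.

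The other named genes with high ratios were a mixed group. Npas3, a basic helix-loop-helix factor, had log2 ratios of 2.60 and 2.63. Ptgs1, a cyclooxygenase of prostaglandin synthesis, stood at 25.3 against 4.08 CPM (2.63) and 28.5 against 6.03 CPM (2.24). Gsta4, a glutathione transferase, had log2 ratios of 2.38 and 2.45, the membrane lectin Chodl 2.65 and 2.38, and Ddit4l, an inhibitor of mTOR signaling, 2.70 and 2.34. Stmnd1 had 2.21 and 2.64, and the diacylglycerol kinase Dgkb 2.81 and 2.14. Slc8a3, a sodium/calcium exchanger, had 33 against 3 UMIs in Bap1f/f (log2 4.49, interval 2.82 to 6.84) and 56 against 92 UMIs in Bap1ΔMPC (2.11). Its level in reference cells of Bap1f/f was close to 0, so that ratio is loosely bounded.

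Of the named lower genes, Kcnj8 and Abcc9 encode the pore and the regulatory subunit of an ATP-sensitive potassium channel. Abcc9 stood at 3.15 against 44.5 CPM in Bap1f/f (14.1-fold lower) and at 2.21 against 13.3 CPM in Bap1ΔMPC (6.04-fold lower). Kcnj8 stood at 2.03 against 26.1 CPM (12.9-fold lower) and at 2.21 against 15.4 CPM (6.99-fold lower). Both channel subunits were thus low in selected cells, but their level in reference cells came unevenly from the clusters described below. In Bap1ΔMPC, 269 cells of cluster 2 with 0 gate UMIs stood at 71.1 CPM for Abcc9 and 76.4 CPM for Kcnj8. Selected cells of that cluster stood at 12.8 and 10.7 CPM. Cells with 0 gate UMIs were also low in cluster 3 of Bap1ΔMPC, at 0 and 2.63 CPM. Those of cluster 1 of Bap1f/f were low as well, at 1.65 and 0.988 CPM. All cells of cluster 2 of Bap1f/f together had Abcc9 at 128 CPM against 13.7 CPM in the other cells under both limits. Of its 432 cells 10 were selected. Mmp27, a matrix metalloprotease, had 4 UMIs against 169 (log2 -4.37, interval -6.26 to -2.99) and 2 UMIs against 228 (-4.005, interval -7.06 to -2.14).

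The other 7 lower genes had fewer UMIs in selected cells. Prkg2, a cGMP-dependent kinase, had 5 against 161 UMIs (log2 -3.98) and 1 against 133 UMIs (-4.23, interval -9.54 to -1.72). The sialic acid enzymes St6galnac5 and Cmah had log2 ratios of -2.998 and -2.61 in Bap1f/f and -3.005 and -2.90 in Bap1ΔMPC. Bmp7, a BMP ligand, had -2.12 and -2.46, the protease inhibitor Serpina3c -2.56 and -2.55, and the amylase gene Amy1 -2.58 and -3.82. Agt, the precursor of angiotensin, had 1 UMI against 50 in Bap1f/f (log2 -4.61, interval -9.94 to -2.07). It had 0 against 125 UMIs in the library labelled Bap1ΔMPC, 5.87-fold lower with the 0 set to a floor of 3 counts over the group. The exact interval of its log2 ratio ended at -2.23, a smaller difference than that. In that library Prkg2, St6galnac5 and Amy1 were under 2-fold lower when Meox1 was left out of the rule (-0.89, -0.80 and -0.66), and these and Mmp27, Agt and Serpina3c were under 2-fold lower after thinning.

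**Figure D3:**
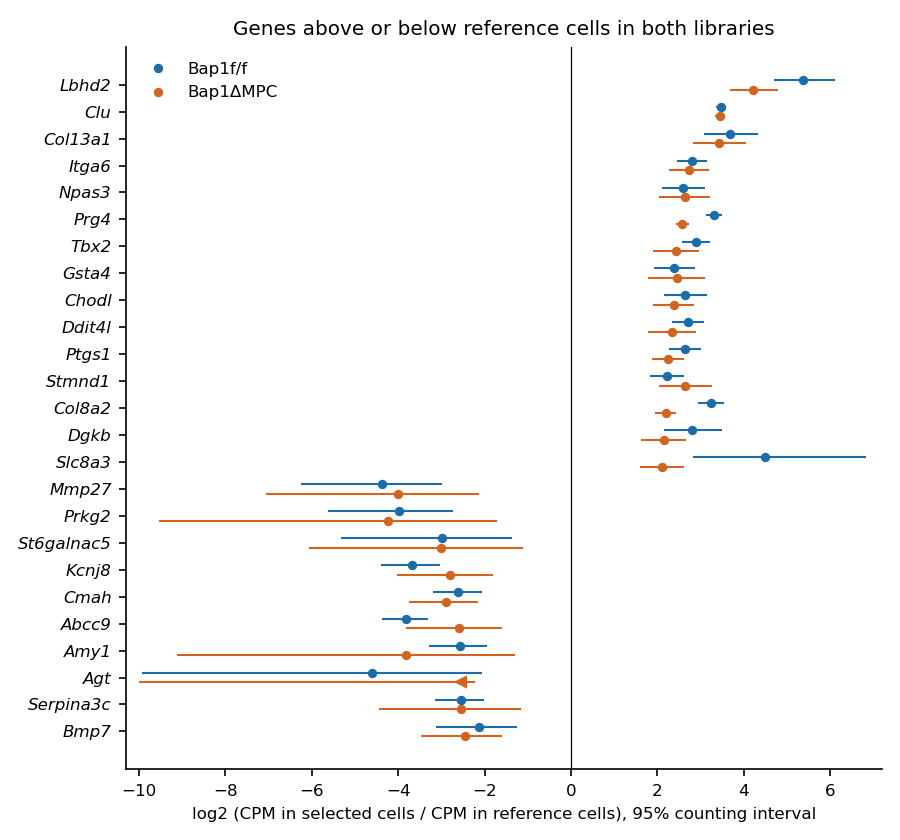
Log2 ratio of CPM in selected cells over reference cells (x axis) for the 15 genes with the largest and the 10 with the most negative ratios in both libraries, blue for Bap1f/f and orange for Bap1ΔMPC, with exact 95% counting intervals as bars. All intervals lie on the side of their point, the higher genes between 2.11 and 5.36, and the arrow at Agt marks a value from 0 UMIs set to the floor.

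Most of these genes differed with the number of gate UMIs in cells under both limits. Clu went over the classes of 0, 1, 2, 3 to 4 and 5 or more gate UMIs from 38.6 to 136, 177, 321 and 507 CPM in the Bap1f/f library. In the library labelled Bap1ΔMPC it went from 50.6 to 238, 421, 560 and 750 CPM. Tbx2 went from 4.36 to 10.9, 19.7, 26.1 and 50.4 CPM, and from 2.40 to 6.76, 11.8, 16.5 and 16.7 CPM. Abcc9 went the other way, from 52.6 to 19.5, 8.85, 2.57 and 1.18 CPM, and from 16.7 to 6.76, 5.51, 0.868 and 0 CPM. Cells with 1 gate UMI, just outside the rule, thus lay between the cells with none and those selected. Of the 15 higher genes, 14 were already higher at 1 gate UMI than at 0 in each library, and of the 10 lower genes 9 and 10 were lower. Beyond that, 15 and 14 of the higher genes stood higher at 5 or more gate UMIs than at 2, while 9 of the lower genes in Bap1f/f but 5 in Bap1ΔMPC stood lower. These genes were chosen for their difference between selected cells and cells with 0 gate UMIs, and the same counts over all genes are not given. The order of the classes is therefore a description and supports nothing.

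**Figure D4:**
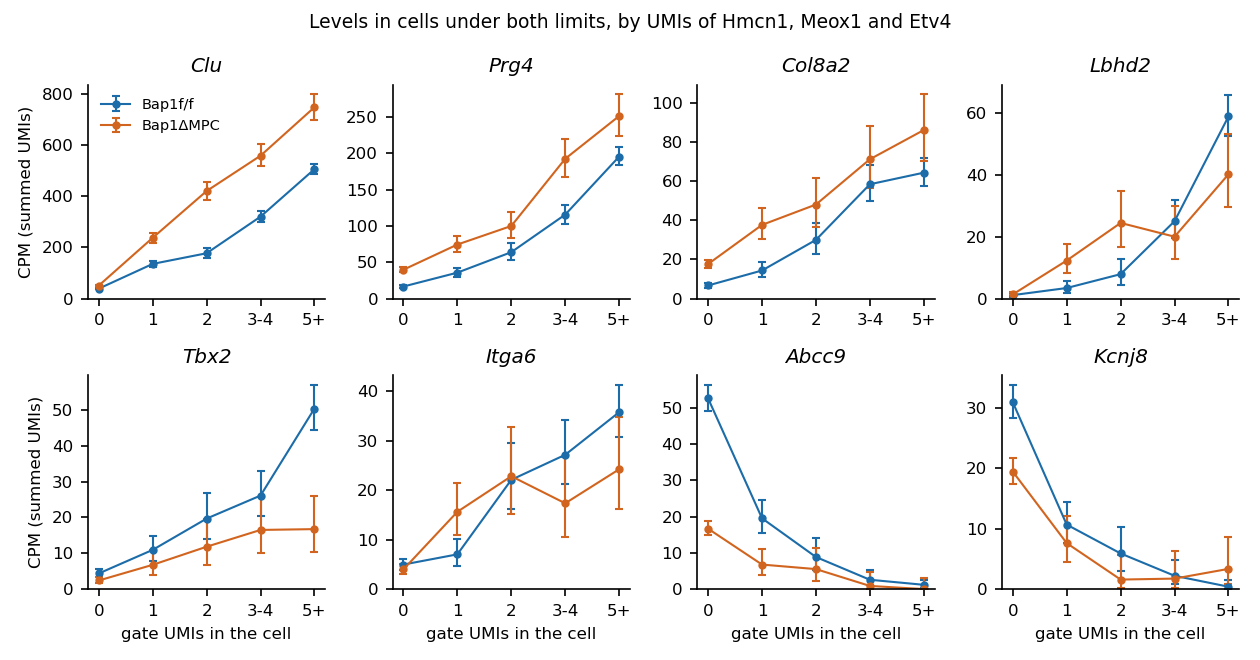
CPM of summed UMIs (y axis) of 8 genes by the number of UMIs of Hmcn1, Meox1 and Etv4 in the cell (x axis), for cells under both limits, with blue for Bap1f/f, orange for Bap1ΔMPC and exact 95% counting intervals as bars. Clu, Prg4, Col8a2, Lbhd2, Tbx2 and Itga6 are lowest at 0 gate UMIs and Abcc9 and Kcnj8 highest, with cells of 1 gate UMI in between.

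The pattern was not limited to cells under the Cxcl14 limit. Cells at or over that limit with 2 or more gate UMIs numbered 147 in Bap1f/f and 137 in Bap1ΔMPC. Their Clu level was 263 and 473 CPM, against 18.6 and 58.1 CPM in cells over the limit with 0 gate UMIs. Cells over the limit of Pi16, Sema3c, Anxa3 and Efemp1 with 2 or more gate UMIs were rare, 27 and 22 cells. Their Clu level was 58.5 and 126 CPM, against 7.22 and 6.77 CPM with 0 gate UMIs. The limits of the rule therefore cut across cells that share the gate genes and Clu.

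Promoters are shown for the higher genes in which a searched motif was found, since an ETS factor, a homeobox factor and a T-box factor were among the genes in question. The 250 bases before the transcription start were searched on both strands for CCGGAA (ETS), GGTGTGA (T-box) and TAATTA (homeobox), in RefSeq windows of GRCm38.p6. A window was at hand for 10 of the 15 higher genes. CCGGAA was in 1 of these 10 and in 12.03% of all 32851 windows, TAATTA in 1 of 10 and in 4.84%, and GGTGTGA in 0 of 10 and in 3.33%. The ETS letters were in the window of Lbhd2 (chr12:111406559-111406808, plus strand), where capitals mark their reverse complement. The homeobox letters were in that of Ptgs1 (chr2:36230176-36230425, plus strand), where capitals mark them. No 2 motifs overlapped in these windows, and a match in letters is a description and not a binding site.
Lbhd2: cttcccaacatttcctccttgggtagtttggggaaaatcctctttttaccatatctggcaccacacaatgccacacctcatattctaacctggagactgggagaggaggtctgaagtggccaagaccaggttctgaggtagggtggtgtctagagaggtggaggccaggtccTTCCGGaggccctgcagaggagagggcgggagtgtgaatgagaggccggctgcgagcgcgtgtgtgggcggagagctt
Ptgs1: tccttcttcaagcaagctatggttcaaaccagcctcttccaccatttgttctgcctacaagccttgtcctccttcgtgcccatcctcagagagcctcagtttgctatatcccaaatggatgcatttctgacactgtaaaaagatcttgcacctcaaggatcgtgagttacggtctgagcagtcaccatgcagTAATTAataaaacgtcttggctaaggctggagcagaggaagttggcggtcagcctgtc

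Gene lists for pathways and cell types, chosen with earlier results of these data known, held 601 genes that entered in both libraries. Of these, 40 were over 2-fold higher in both and 33 over 2-fold lower in both, against 1.49% and 1.06% of all genes. In the lists below, the counts are of genes past 2-fold in both libraries, and the medians are log2 ratios in Bap1f/f and then in Bap1ΔMPC.

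Targets of FGF and ERK signaling, the list to which Etv4 belongs, had 3 of 16 genes higher and 0 lower, with medians of 0.69 and 0.51. Spry4, a feedback inhibitor of receptor tyrosine kinases, stood at 59.0 against 19.4 CPM (log2 1.61) in Bap1f/f and 48.4 against 13.4 CPM (1.85) in Bap1ΔMPC. Dusp6, an ERK phosphatase, stood at 35.5 against 13.5 CPM (1.39) and 30.1 against 8.09 CPM (1.90). The ETS factor Etv1 had log2 ratios of 1.59 and 1.56, and Etv5 had 1.38 and 0.86. After thinning, 1 gene of the list was higher in both. Of 12 FGF ligands and receptors, 0 were higher in both and 1 lower, Fgf9 (-2.004 and -2.53). Fgf1 had log2 ratios of 1.958 and 0.51, and Fgf7 of -0.77 and -0.47.

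The list of T-box and limb patterning factors had 3 of 28 genes higher and 0 lower, with medians of 0.16 and 0.24. Besides Tbx2, these were Meox2 and Scx. Meox2, the paralog of Meox1, stood at 447 against 138 CPM in Bap1f/f and 363 against 112 CPM in Bap1ΔMPC, a log2 ratio of 1.70 in both. Scx, the tendon factor scleraxis, had few UMIs, 26 against 12 (2.15) and 42 against 84 (1.83). Prrx2 had log2 ratios of 1.57 and 0.85. Of 15 Hox genes 0 were past 2-fold in both in either direction, with medians of -0.16 and -0.18.

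Genes of TGF-β response and contractility had 5 of 32 higher and 0 lower, with medians of 0.28 and 0.47. Acta2, smooth muscle actin, stood at 20.2 against 5.62 CPM (log2 1.85) and 14.1 against 3.97 CPM (1.83). Tagln, an actin-binding protein, stood at 25.7 against 4.27 CPM (2.59) and 78.2 against 22.2 CPM (1.82). Ctgf, a secreted matricellular factor, stood at 414 against 164 CPM (1.34) and 445 against 134 CPM (1.73). Inhba, an activin chain, had 1.76 and 1.58, and Ltbp2, a matrix protein of the latent TGF-β binding family, 1.56 and 1.92. With Meox1 left out of the rule, 0 genes of the list were higher in both, and 1 was after thinning. Among 22 BMP genes Id1, a target of BMP signaling, was higher (2.27 and 1.30), and Bmp7 was lower (-2.12 and -2.46).

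Other signaling lists had few genes past 2-fold in both libraries. Of 34 Wnt genes 1 was lower, the secreted inhibitor Sfrp2, at 61.5 against 536 CPM in Bap1f/f (-3.12) and 30.7 against 65.7 CPM in Bap1ΔMPC (-1.10). Boc, a hedgehog co-receptor and 1 of 12 hedgehog genes, was higher at 178 against 63.5 CPM (1.48) and 172 against 61.7 CPM (1.48). Hey1 was higher among 10 Notch genes (1.31 and 1.01). Among 21 steroid and retinoid genes, the retinoic acid binding protein Crabp2 (2.07 and 2.35) and the retinoic acid hydroxylase Cyp26b1 (1.06 and 1.62) were higher. Aldh1a1 (-1.68 and -1.42), Zbtb16 (-1.06 and -1.29) and Hsd11b1 (-1.65 and -1.02) were lower. Hsd11b1 is also among the markers of Cxcl14+ FAPs, and the Cxcl14 limit held for selected cells alone.

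Of 41 genes of axon guidance, 4 were higher and 3 lower. Robo2, a Slit receptor, stood at 28.7 against 3.88 CPM (log2 2.89) in Bap1f/f and 19.3 against 4.71 CPM (2.04) in Bap1ΔMPC. The ephrin receptor Epha5 (2.84 and 2.01), the semaphorin receptor Nrp2 (1.24 and 1.79) and Sema3f (1.16 and 1.15) were the other higher genes. Lower were Sema3b (-2.24 and -1.24), the Robo ligand Slit2 (-1.20 and -1.53) and Ntng1 (-1.45 and -1.14). After thinning, 0 of the 4 were higher in both. Among 19 neurotrophic genes Clcf1 was higher (1.28 and 1.22), and Sort1 (-2.34 and -1.91), Ntrk3 (-1.08 and -1.76) and the receptor tyrosine kinase Ret (-1.06 and -1.19) were lower.

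Matrix genes were split in both directions. Of 28 collagens, Col13a1, Col8a2 and Col12a1 (log2 1.30 and 1.18) were higher, and Col6a5 (-1.96 and -1.81) and Col4a5 (-2.03 and -1.67) lower. Among 34 fibulin, fibrillin and basement membrane genes, tenascin-C (Tnc, 1.34 and 1.73) and Egfl6 (1.25 and 2.46) were higher, and Fbln1 (-1.69 and -1.11) and Emilin2 (-1.05 and -1.03) lower. Among 33 small leucine-rich and matricellular genes Mgp, an inhibitor of calcification, stood at 8372 against 3594 CPM (1.22) and 1917 against 814 CPM (1.24). Thbs4 stood at 301 against 112 CPM (1.43) and 946 against 366 CPM (1.37). Of the 3422 Thbs4 UMIs of selected Bap1ΔMPC cells, 2421 were in 64 cells of a single cluster (cluster 5, described below), at 2668 CPM, and cells of that cluster with 0 gate UMIs stood at 2537 CPM. Spon2 was also higher (1.51 and 1.67), Spon1 lower (-1.57 and -1.45), and of 41 proteases and inhibitors Mmp27 and Adamtsl1 (-1.91 and -2.15) were lower and 0 higher.

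Integrins and cadherins had 4 of 24 genes higher and 0 lower, with medians of 0.62 and 0.25. Besides Itga6 these were the collagen-binding chains Itga10 (2.06 and 1.64) and Itga1 (1.26 and 1.03) and the mesenchymal cadherin Cdh11. Cdh11 stood at 249 against 62.4 CPM in Bap1f/f (log2 2.00) and at 94.0 against 32.9 CPM in Bap1ΔMPC (1.51). With Meox1 left out of the rule 1 gene of the list was higher in both, and after thinning 2 were.

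Complement and chemokine genes had 3 of 24 lower and 1 higher, with medians of -0.52 and -0.21. Complement C3 stood at 34.7 against 149 CPM (log2 -2.10) in Bap1f/f and 161 against 578 CPM (-1.85) in Bap1ΔMPC, C4b had -2.06 and -1.72, and Cxcl10 -1.83 and -1.74. Cx3cl1 was the higher gene (1.42 and 1.40). Of 23 angiogenic genes, the VEGF receptor Flt1 (2.73 and 1.92) and Nrp2 were higher, and Vegfd (-1.91 and -1.94), the angiopoietin receptor Tek (-1.20 and -1.80) and Kdr (-2.20 and -1.17) lower. Of 23 adipogenic regulators 1 was lower, Pparg (-1.38 and -1.83). Of 9 osteo-chondrogenic genes 0 were past 2-fold in both.

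Of 29 immediate-early and stress genes 1 was higher, Nr4a2 (log2 1.94 and 1.504), and the medians were -0.08 and -0.01. Of 27 cell cycle genes 3 were higher, Ube2c (1.21 and 1.36), Ccnb1 (1.18 and 1.84) and Cenpf (1.10 and 1.01), with medians of 0.64 and 0.57. This count was 0 without the 5% of cells with most UMIs and 0 after thinning. Of 22 ribosomal protein genes 0 were past 2-fold, with medians of 0.01 and -0.18.

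Markers of other cells differed in part between selected and reference cells. Tendon genes had 3 of 8 higher in both and summed to 503 against 239 CPM in Bap1f/f and 1620 against 720.1 CPM in Bap1ΔMPC. Tnmd, tenomodulin, stood at 56.2 against 22.6 CPM (log2 1.31) and 178 against 66.3 CPM (1.42), with Thbs4 and Scx as above, while Comp (1.93 and 0.87), Kera (1.83 and 0.87) and Cilp2 (2.31 and 0.82) were past 2-fold in Bap1f/f. Within cluster 5 of Bap1ΔMPC (described below), Tnmd stood at 419 CPM in selected cells and 489 CPM in cells with 0 gate UMIs. In cluster 3 of that library it stood at 155 and 189 CPM, and in cluster 6 of Bap1f/f at 147 and 62.3 CPM. Mkx had 6 and 2 UMIs, Fmod had log2 ratios of -0.82 and 0.18, and with Meox1 left out of the rule 0 of the tendon genes were higher in both. The perineurial markers Itgb4 and Lypd2 stood at 4.57 against 0.795 CPM and 9.45 against 1.49 CPM in Bap1f/f. Their UMIs there lay mainly in 1 of the clusters described below. Selected cells of clusters 6, 3 and 1 of Bap1f/f had 40, 2 and 1 UMIs of Itgb4 and 92, 1 and 0 UMIs of Lypd2. In Bap1ΔMPC they had 25 against 34 and 17 against 24 UMIs and did not enter. The perineurial list summed to 28.2 against 11.9 CPM and 44.2 against 21.9 CPM. What part such cells or their RNA had in the ratios was not tested.

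Endothelial genes did not move together. Cdh5 had 56 against 11 UMIs in Bap1f/f and 9 against 6 in Bap1ΔMPC, while Pecam1 had 13 against 69 and 14 against 175 UMIs, Vwf had 1 and 0 UMIs in selected cells, and the list of 6 summed to 30.8 against 66.5 CPM and 29.0 against 81.8 CPM. Of the mural markers, Kcnj8 and Abcc9 were low as above, Cspg4 stood at 63.5 against 33.9 and 60.5 against 31.1 CPM, Rgs5 had 9 and 2 UMIs in selected cells and Myh11 had 0 and 16, and the list summed to 77.1 against 112 CPM and 79.1 against 71.8 CPM. Myofiber genes summed to 95.01 against 41.5 CPM in Bap1f/f and 28.7 against 30.6 CPM in Bap1ΔMPC, with 4 of 5 past 2-fold in Bap1f/f. Erythroid genes summed to 8.94 against 66.3 CPM and 13.8 against 28.5 CPM. Muscle RNA was thus higher in the selected cells of 1 library, and hemoglobin RNA lower in both. In cluster 2 of Bap1f/f, where 10 of 432 cells were selected, Hbb-bs stood at 205 CPM against 5.82 CPM in the other cells under both limits. The source of these RNAs and their part in the ratios were not tested. Immune markers summed to 2.03 against 2.98 and 10.5 against 11.2 CPM, adipocyte markers to 6.71 against 12.3 and 47.0 against 136 CPM, Schwann markers to 17.6 against 27.2 and 49.8 against 83.1 CPM, and muscle stem markers to 35.1 against 47.0 and 20.5 against 25.2 CPM, nearly all of it Vcam1.

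Apart from the tendon genes above, markers of other FAP groups were mostly no higher in selected cells. Markers of Dpp4+ FAPs that the rule did not use summed to 1345 against 1122 CPM in Bap1f/f and 1842 against 1982 CPM in Bap1ΔMPC, and Dpp4 itself was lower (log2 -1.08 and -1.49). Those of Cxcl14+ FAPs summed to 6026 against 6308 CPM and 4869.8 against 5655 CPM. Since the Cxcl14 limit held for selected cells alone, a lower sum of these markers was favored by the rule and nothing is drawn from it. Of smaller marker groups from the same libraries, Spon1, Cldn2, Hsd11b2 and Angpt4 summed to 24.1 against 64.1 and 141 against 330 CPM, and Wnt4, Pcsk2 and Rtl4 to 3.45 against 4.42 and 20.2 against 63.0 CPM. Lgr5, Pappa2 and Kdr summed to 12.1 against 42.0 CPM in Bap1f/f and 23.8 against 16.7 CPM in Bap1ΔMPC. Fmo2, Angpt2 and Stc1 summed to 68.8 against 193 and 24.6 against 20.7 CPM, and Krt7 and Plet1 to 2.13 against 0.895 and 10.2 against 16.0 CPM. These last 3 groups stood on opposite sides of the reference cells in the 2 libraries.

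Selected cells lay near each other in expression when the 8 genes of the rule were left out. Among the 20 nearest neighbors of a selected cell of the Bap1f/f library, 70.6% were selected cells, against 12.5% among the neighbors of other cells and 31.5% of all cells under both limits. In the library labelled Bap1ΔMPC the shares were 34.8%, 9.57% and 14.4%. Selected cells were thus surrounded by their own kind above their share in both libraries, and by a majority of unselected cells in Bap1ΔMPC.

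In clusters formed without the genes of the rule, selected cells of the Bap1f/f library fell mainly into 2. Cluster 3 held 388 cells, of which 354 (91.2%) were selected, and cluster 6 held 281 cells, of which 197 (70.1%) were. Cluster 1 held 99 further selected cells among 461. In the library labelled Bap1ΔMPC, cluster 3 held 145 selected cells of 322 (45.0%) and cluster 5 held 64 of 289 (22.1%). The cells of this cluster 5 as a whole were high in tendon genes. Tnmd stood at 451 against 32.7 CPM in the other cells under both limits, Chad at 202 against 6.17 CPM and Fmod at 226 against 6.78 CPM. The libraries were clustered separately, so equal numbers do not mark the same cells. The division depends on the resolution, and at 0.25 a single cluster held 72.6% and 70.3% of the selected cells of the 2 libraries.

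The selected cells of clusters 3 and 6 of Bap1f/f differed in many genes, given here as a description since such genes define the clusters. Cluster 3 had Enpp1, a pyrophosphate-producing enzyme, at 128 against 2.26 CPM, Aldh1a2, which makes retinoic acid, at 45.8 against 3.16 CPM, and the forkhead factor Foxs1 at 53.5 against 4.06 CPM. Cluster 6 had Clu at 1194 against 228 CPM, the GTPase Rrad at 267 against 15.9 CPM, Egfl6 at 135 against 5.69 CPM and Fmod, fibromodulin, at 95.2 against 2.73 CPM. Its perineurial marker Lypd2 stood at 41.5 against 0.228 CPM. Selected cells of cluster 3 of the library labelled Bap1ΔMPC shared features of each. They had Clu at 1274 CPM and Rrad at 247 CPM, but Fmod at 8.64 CPM, Aldh1a2 at 157 CPM, and Foxs1 and Enpp1 at 3.32 and 5.98 CPM. Of 84 genes over 3-fold higher in cluster 3 of Bap1f/f, 46 stood nearer to cluster 6 in these cells and 38 nearer to cluster 3, and of 102 genes higher in cluster 6, 69 and 33.

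Cells with UMIs of a single gate gene also differed among the selected cells. Hmcn1-only cells of the Bap1f/f library (118 cells) had Clu at 99.8 CPM, where Meox1-only cells (109) had 335 CPM and cells with all 3 genes (174) had 584 CPM. They were higher than the other selected cells for Dpp4 (97.9 against 20.6 CPM) and the chemokine Ccl7 (139 against 32.2 CPM), and lower for Lbhd2 (3.89 against 45.4 CPM) and Tnmd (10.4 against 64.7 CPM). The same log2 ratios in the library labelled Bap1ΔMPC were 2.25 for Dpp4, 0.18 for Ccl7, -0.10 for Lbhd2 and 0.50 for Tnmd, so Dpp4 alone of these 4 had a like ratio there. In the library labelled Bap1ΔMPC, Hmcn1-only cells (45) had Clu at 487 CPM and cells with all 3 genes (15) at 1270.3 CPM. Its Meox1-only cells (142) had Clu at 329 CPM. They were higher than the other selected cells for the galectin Lgals7 (120.4 against 9.87 CPM) and the carbonic anhydrase Car3 (39.0 against 3.29 CPM), and lower for Ptgs1 (5.57 against 51.01 CPM) and Phex (8.92 against 57.0 CPM). In Bap1f/f the same log2 ratio was -1.87 for Ptgs1 and -0.32 for Lgals7, and Car3 and Phex had 1 and 3 UMIs in its Meox1-only cells, so the higher level of Lgals7 was not seen in both libraries. Etv4-only cells were 6 in each library, too few to describe.

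Between the libraries, selected cells of Bap1ΔMPC were compared with those of Bap1f/f, and the same ratio in reference cells is given beside each. Of 10841 genes that entered, 152 (1.4%) were over 3-fold higher in the library labelled Bap1ΔMPC and 142 (1.31%) over 3-fold lower. In reference cells, 87 of the 152 and 52 of the 142 were also past 3-fold the same way. Among all genes that entered, 160 were past 3-fold higher and 113 past 3-fold lower in reference cells. The libraries, their animals and the mixture of selected cells cannot be told apart from the genotype in any of these values.

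Of the 8 genes with the largest ratios upward, 7 were also higher in reference cells. Phex, an endopeptidase of mineralizing cells, stood at 1.22 CPM in Bap1f/f and 33.2 CPM in Bap1ΔMPC (log2 4.77), with a log2 ratio of 2.02 in reference cells. Lcn2, the iron-siderophore binding lipocalin, stood at 1.93 and 50.03 CPM (4.70, reference 6.05), and Epha5 at 2.85 and 45.6 CPM (4.00, reference 4.83). Masp1 had log2 ratios of 3.65 in selected and 3.90 in reference cells, Chad 3.23 and 3.79, Lgals7 2.92 and 4.41, and Fuca2 2.84 and 2.22. The exception was the monocyte chemokine Ccl2, at 44.5 CPM in Bap1f/f and 373 CPM in Bap1ΔMPC (3.07, interval 2.91 to 3.23). In reference cells Ccl2 stood at 114 and 95.8 CPM (-0.25).

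The ratios downward included several that were close to 0 in reference cells. Rspo3, a secreted Wnt agonist, stood at 55.8 CPM in selected cells of Bap1f/f and 7.46 CPM in those of Bap1ΔMPC (log2 -2.90, interval -3.52 to -2.35), against 10.4 and 8.13 CPM in reference cells (-0.35). Sh2d6 had 178 and 6 UMIs (-3.45, reference -0.35) and Mettl24 178 and 10 UMIs (-2.71, reference -0.23). Dchs2, a large cadherin, had 142 and 2 UMIs (-4.71, reference -2.96). Clec1a, a C-type lectin, stood at 68.3 and 9.12 CPM (-2.90, reference -2.23), and the ectonucleotidase Entpd1 at 29.9 and 4.98 CPM (-2.59, reference -2.15). Scml4 and Nav3 had -2.98 and -2.96 in selected cells and -1.30 and -1.35 in reference cells. Whether the ratios in selected and reference cells differ was not tested.

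The clusters carried these genes unequally. Rspo3 stood at 82.0 and 55.0 CPM in the selected cells of clusters 3 and 6 of Bap1f/f, and at 14.0 and 0 CPM in those of clusters 3 and 5 of Bap1ΔMPC. Clec1a stood at 90.4 and 74.4 CPM, and at 7.31 and 0 CPM. In the 99 selected cells of cluster 1 of Bap1f/f, Rspo3 stood at 13.1 CPM and Clec1a at 24.9 CPM, so Rspo3 was not higher in every Bap1f/f cluster than in cluster 3 of Bap1ΔMPC. Ccl2 stood at 16.6, 14.9 and 105 CPM in clusters 3, 6 and 1 of Bap1f/f and at 98.3 CPM in cluster 3 and 960 CPM in cluster 5 of Bap1ΔMPC, so that 64 cells carried 871 of its 1350 UMIs there. Epha5, Lcn2 and Phex stood at 100.3, 114 and 70.4 CPM in cluster 3 of Bap1ΔMPC and at 6.61, 7.71 and 5.51 CPM in cluster 5. Tbx2 stood at 49.6, 49.2 and 8.30 CPM in clusters 3, 6 and 1 of Bap1f/f, and at 26.6, 5.51 and 8.54 CPM in clusters 3, 5 and 2 of Bap1ΔMPC, where cluster 2 held 38 selected cells.

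**Figure D5:**
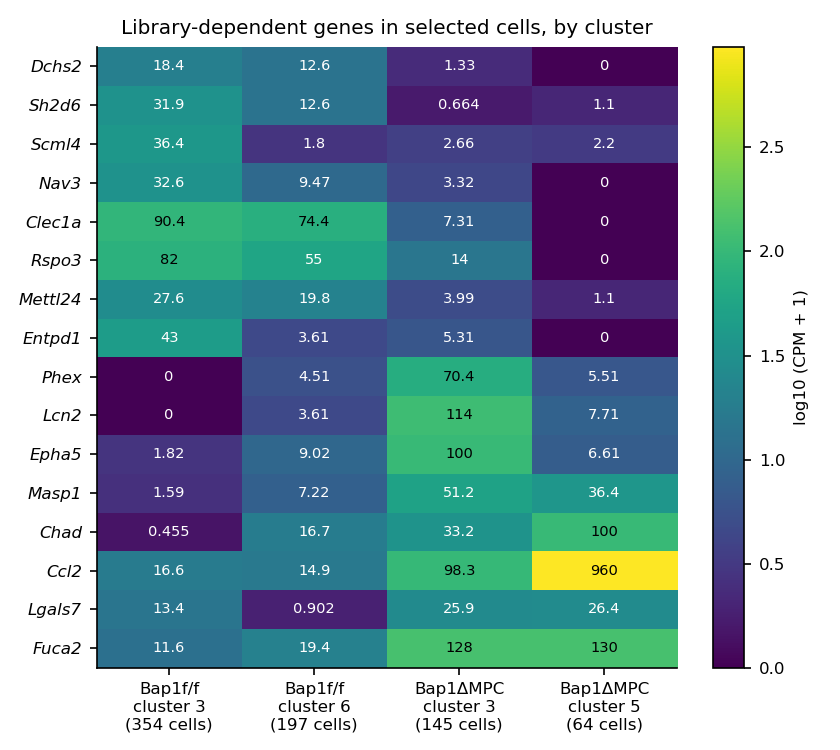
CPM of summed UMIs (numbers in the cells, color on a log10 scale of CPM + 1) of the 16 genes with the largest library ratios (y axis) in the selected cells of clusters 3 and 6 of Bap1f/f and clusters 3 and 5 of Bap1ΔMPC (x axis). Among these 4 clusters, the 8 upper genes are highest in cluster 3 of Bap1f/f, Phex, Lcn2 and Epha5 are highest in cluster 3 of Bap1ΔMPC, and Ccl2 reaches 960 CPM in its cluster 5.

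The 15 named higher genes were chosen by their ratios in both libraries, so likeness between the libraries was favored by the choice and nothing is drawn from it. In selected cells, the log2 ratio of Bap1ΔMPC over Bap1f/f was -0.01 for Col13a1, -0.09 for Npas3, 0.17 for Ptgs1, 0.30 for Chodl and -0.42 for Gsta4. It was 0.29 for Col8a2, 0.30 for Prg4, -0.47 for Lbhd2, -0.50 for Itga6, -0.56 for Stmnd1, 0.57 for Clu and 0.64 for Dgkb. The intervals of Col8a2, Prg4, Lbhd2, Itga6, Stmnd1, Clu and Dgkb left out 0. Tbx2 was lower in Bap1ΔMPC (-1.32, interval -1.76 to -0.91, reference -0.86), as was Ddit4l (-0.97, reference -0.62), and Slc8a3 was higher (2.21, reference 4.59). Smn1 stood at 27.2 and 27.9 CPM in selected cells of the 2 libraries.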

How the data were processed

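Single-cell RNA-Seq of sorted FAPs was analysed in 1 library per genotype. The authors deposited raw UMI counts (genes by cells, not normalized) from 10x Genomics 3′ libraries aligned to mm10 with Cell Ranger 3.1.0, per the labels and methods. They removed low-quality cells, doublets and non-FAPs in Seurat 3.2.1 (R 3.6.1), with thresholds not given in the sources used here. No doublet caller was run here.

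The members and all 41 gene lists were chosen with earlier results of these data known, and list counts support no direction. UMIs were summed over selected or reference cells, scaled to CPM and compared as ratios without a test. A count of 0 was set to a floor of 3 counts. Ratios have exact conditional binomial intervals, shares exact Clopper-Pearson intervals and levels exact Poisson intervals, at 95%. Named genes were the gate, sort and label genes, the 15 largest and 10 most negative ratios by the value nearer 0 of the 2 libraries, up to 4 genes per list (list members past the fold in both libraries are added), the 8 largest library ratios each way with 30 or more UMIs expected, and up to 4 genes each way per single-gene subset. Genes with opposite ratios were chosen after their values were seen.

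For neighbors and clusters, 5000 variable genes and 8 principal components were used as in the methods, with 20 neighbors and Leiden clustering (leidenalg 0.10.2, scanpy 1.11.5) at resolution 0.5. The work ran in Python 3.11.15 (scipy 1.17.1) and R 4.3.3, with edgeR 4.0.16 for TMM factors alone. Scripts were tested on simulated data. Depth was 51015705 and 49540066 UMIs over 31053 genes. Promoter sequences are from RefSeq (GRCm38.p6). Alternatives changed the rule, the reference, the scaling, the depth, the minimum of UMIs, the fold and the neighbor settings.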

Additional observations from a re-analysis of the deposited data

Results flagged for a closer look

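Among genes that entered in both libraries, 9 were past 2-fold in opposite directions in selected over reference cells. The difference between the libraries was not tested, and with 1 library per genotype it cannot be.

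Of these genes, 5 were lower in selected cells of Bap1f/f and higher in those of the library labelled Bap1ΔMPC. Rspo1, a secreted Wnt agonist like Rspo3, had 14 against 162 UMIs (log2 -2.50) in Bap1f/f and 72 against 248 UMIs (1.04) in Bap1ΔMPC. Lgr5, a receptor for R-spondins, had 58 against 240 UMIs (-1.02) and 60 against 155 UMIs (1.46). Both genes were thus on the lower side in 1 library and on the higher side in the other. In Bap1ΔMPC, Rspo1 stood at 58.0 CPM in all cells of cluster 5 against 5.06 CPM in the other cells under both limits. Of the 60 Lgr5 UMIs of selected cells there, 39 were in cluster 3. Whether the same cells carried both genes was not tested. Ccl2 had log2 ratios of -1.36 and 1.962, with 438 and 1350 UMIs in selected cells. Phex had -1.69 and 1.06, and the forkhead factor Foxc1 -1.31 and 1.01.

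The other 4 were higher in Bap1f/f and lower in Bap1ΔMPC, where their counts were small. Mcm2, a subunit of the replicative helicase, had log2 ratios of 1.17 and -1.06, with 67 and 11 UMIs in selected cells. Akr1c18, a progesterone-metabolizing reductase, had 1.03 and -3.68, with 1 UMI in selected cells of Bap1ΔMPC. Moxd1 had 1.28 and -1.19 (5 UMIs, interval -2.85 to 0.09), and the kinetochore gene Cenps 1.35 and -1.05 (6 UMIs, interval -2.53 to 0.13). For Moxd1 and Cenps the interval in Bap1ΔMPC included 0.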

How the results depend on the processing

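No paired analysis was possible because, with a single library for either genotype, there is only 1 pair and no test. The main limits are that 1 library per genotype leaves library and genotype inseparable, that the rule reads raw UMIs and so selects fewer cells at lower depth, and that the mixture of Hmcn1, Meox1 and Etv4 differs between libraries. Single ratios were followed for the 15 higher and 10 lower named genes and the 8 library ratios each way, and none of these changed sign in an alternative. Other genes printed with a ratio were not followed singly, and for the lists only the counts were. Of 768 values of the higher and lower named genes other than Tbx2, 659 stayed within their counting interval and 109 moved outside it. Of 224 library ratios 190 stayed and 34 moved. Leaving out Etv4 or the 5% of cells with most UMIs moved no main share and no Tbx2 ratio outside its counting interval. Counts did change. Genes higher in Bap1ΔMPC went from 280 to 250 without Etv4 and 234 without those cells. Those higher in both libraries went from 160 to 137 and 132, and listed genes higher in both from 40 to 34 and 33.

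The share of selected cells, in Bap1f/f and then in Bap1ΔMPC, was 26.9% and 11.8% with 1 or more gate UMIs (2.28-fold apart) and 15.2% and 4.39% with 3 or more (3.47-fold). It was 15.7% and 5.12% with 2 or more gate UMIs per 10000, 16.4% and 6.01% with Cxcl14 under 2 per 10000, and 21.1% and 7.81% with Cxcl14 under 10. It was 13.7% and 5.32% without Hmcn1, 13.0% and 2.65% without Meox1 (4.92-fold), and 12.03% and 3.67% after thinning (3.28-fold). With the limit on Pi16, Sema3c, Anxa3 and Efemp1 at 10 it was 16.3% in Bap1f/f.

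The share of selected cells among neighbors of selected cells in Bap1ΔMPC was 45.5% with 1 or more gate UMIs and 28.8% with 3 or more. In Bap1f/f and Bap1ΔMPC it was 66.0% and 27.1% without Hmcn1, 56.7% and 24.7% without Meox1, and 62.6% and 24.1% after thinning. The log2 ratio of Tbx2 was 2.47 and 1.48 without Meox1, and 2.53 in Bap1f/f after thinning. At resolution 1.0, chosen after seeing the data, the largest cluster held 45.7% and 37.6% of selected cells.

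Counts of genes past 2-fold moved most with the minimum of UMIs. With 30 expected UMIs, 369 were higher and 267 lower in Bap1f/f, 139 and 141 in Bap1ΔMPC, 87 and 69 in both, and 24 listed genes were higher in both. With no minimum beyond 1 UMI these were 3514 and 895, 4920 and 715, 1890 and 226, and 81. At over 3-fold they were 240 and 213, 87 and 98, 43 and 34, with 14 listed genes higher and 13 lower. Without Meox1, 152 genes were higher in Bap1ΔMPC, 64 in both and 13 listed genes in both. After thinning, 374 were higher in Bap1f/f, 118 in Bap1ΔMPC, 57 in both and 16 listed genes in both. With 1 or more gate UMIs, 75 were lower in both. Library ratios past 3-fold, higher and lower in Bap1ΔMPC, numbered 66 and 89 without Meox1, 61 and 80 after thinning, 66 and 65 with 30 expected UMIs and 2187 and 338 with no minimum, and 362 and 410 were past 2-fold. After thinning, log2 ratios in Bap1ΔMPC were -0.96 for Mmp27, -0.35 for Prkg2, -0.12 for St6galnac5, -0.09 for Amy1, -0.32 for Agt and -0.25 for Serpina3c, sums of a few UMIs with 0 set to the floor. The cause of these shifts was not tested, beyond the fewer cells or genes that enter.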
